A study of Mus musculus with 27 samples.

Results

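The genes described here were 10 plasma membrane amino acid transporters of mouse splenic B cells: Slc7a1, Slc7a2, Slc7a5, Slc7a6, Slc3a2, Slc1a2, Slc1a4, Slc1a5, Slc38a1 and Slc38a2. They were taken by gene symbol from the 54532 genes counted in 27 RNA-seq libraries, and every symbol was found. The B cells were isolated by negative selection from the spleens of wild-type C57BL6 mice and cultured for 3 h. In the first experiment, 4 libraries each were made from 5 groups of B cells. They were unstimulated cells, cells given LPS, a T-independent stimulus, and cells given IL-4+anti-CD40, a T-dependent stimulus. The other groups were given either stimulus and 1 μM disulfiram (DSF), an inhibitor of aldehyde dehydrogenase. Cells without inhibitor received the vehicle, DMSO. A second experiment had 1 library each of these 5 groups, and 1 library each of LPS and of IL-4+anti-CD40 with 1 μM ibrutinib, an inhibitor of the kinase BTK. The authors' figure legends call the cells with DSF or ibrutinib pre-treated, and where DSF is called added below, no order is meant. All groups shared the genotype and the tissue. The ages of the mice and whether a library came from 1 mouse or from pooled mice are not given in the sources used here.

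Amino acid transporters of the SLC families set how fast leucine, arginine, glutamine and other amino acids enter a cell, and resting lymphocytes are known to raise them when they are activated and begin to grow. The CD98 heavy chain, encoded by Slc3a2, carries light chains such as LAT1 (Slc7a5), which exchanges large neutral amino acids, and y+LAT2 (Slc7a6), which exchanges cationic for neutral amino acids. Slc7a1 and Slc7a2 encode the cationic amino acid transporters CAT1 and CAT2, which carry arginine and lysine. The SLC1 members are the neutral transporters ASCT2 (Slc1a5), which carries glutamine, and ASCT1 (Slc1a4), which carries alanine, serine and cysteine, and the glutamate transporter GLT-1 (Slc1a2), best known from astrocytes. Slc38a1 and Slc38a2 encode the sodium-coupled neutral transporters SNAT1 and SNAT2, of which SNAT2 is known to be induced when amino acids run short.

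Libraries of the first experiment held 17804851 to 23632992 counts. All 10 B-cell markers of a hand-written list were detected, with a summed level of 4266 to 11010 TMM-normalised CPM, that is counts scaled to library size, against 22.9 to 47.8 for 10 T-cell markers and 622 to 1434 for 10 myeloid markers. The unstimulated libraries fell into pairs: the chi-square per gene was 2.86 between replicates 1 and 2 and 6.64 between replicates 3 and 4, but 84.8 to 90.7 across these pairs. Marker sums moved with this division: B-cell markers were at 6336 and 6279 CPM in replicates 1 and 2 and 11010 and 10770 CPM in replicates 3 and 4, 9 erythroid markers at 5.59 and 4.60 against 63.3 and 68.5 CPM, 10 neutrophil markers at 62.6 and 64.0 against 28.7 and 30.5 CPM, and 10 NK-cell markers at 25.0 and 26.2 against 13 and 13.3 CPM. Their part in the stimulation results was not tested. The IL-4+anti-CD40 libraries divided in the same places, with 3.49 and 6.41 within the pairs and 15.6 to 27.2 across them. For some genes, comparisons with either group are therefore also given for the pairs taken apart, a choice made with this division known. In these bulk samples, fewer cells of a type and less RNA per cell cannot be told apart.

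Levels between genes were compared with the authors' FPKM, which divide by gene length. In unstimulated B cells Slc1a5 was the highest of the 10 genes at 67.1 ± 12.9 FPKM (SD, n = 4), ahead of Slc3a2 at 34.7 ± 8.92, Slc38a2 at 29.7 ± 7.90 and Slc7a5 at 26.2 ± 19.4. Slc3a2, Slc38a2 and Slc7a5 overlapped in their library ranges, so their order was not resolved. With LPS, Slc7a5 stood first at 132 ± 1.72 FPKM, above Slc1a5 at 83.3 ± 2.09, Slc38a2 at 62.1 ± 2.13 and Slc3a2 at 55.7 ± 1.80. With IL-4+anti-CD40 the leading genes were again Slc7a5 (172 ± 12.8 FPKM) and Slc1a5 (108 ± 2.03), followed by Slc3a2 (83.9 ± 16.1), whose range overlapped that of Slc38a2 (67.7 ± 3.39). Under DSF the CD98 heavy chain Slc3a2 was first with either stimulus, at 220 ± 13.1 FPKM in LPS and 227 ± 15.8 in IL-4+anti-CD40, and Slc7a5 was second at 150 ± 5.74 and 156 ± 6.67. The library ranges of Slc3a2 and Slc7a5 did not overlap in either DSF group. Slc7a2 and Slc1a2 were the lowest in every group, and Slc1a2 stayed under 0.5 FPKM in each of the 20 libraries, with a mean of 0.387 ± 0.0501 FPKM in its highest group, IL-4+anti-CD40.

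**Figure D1:**
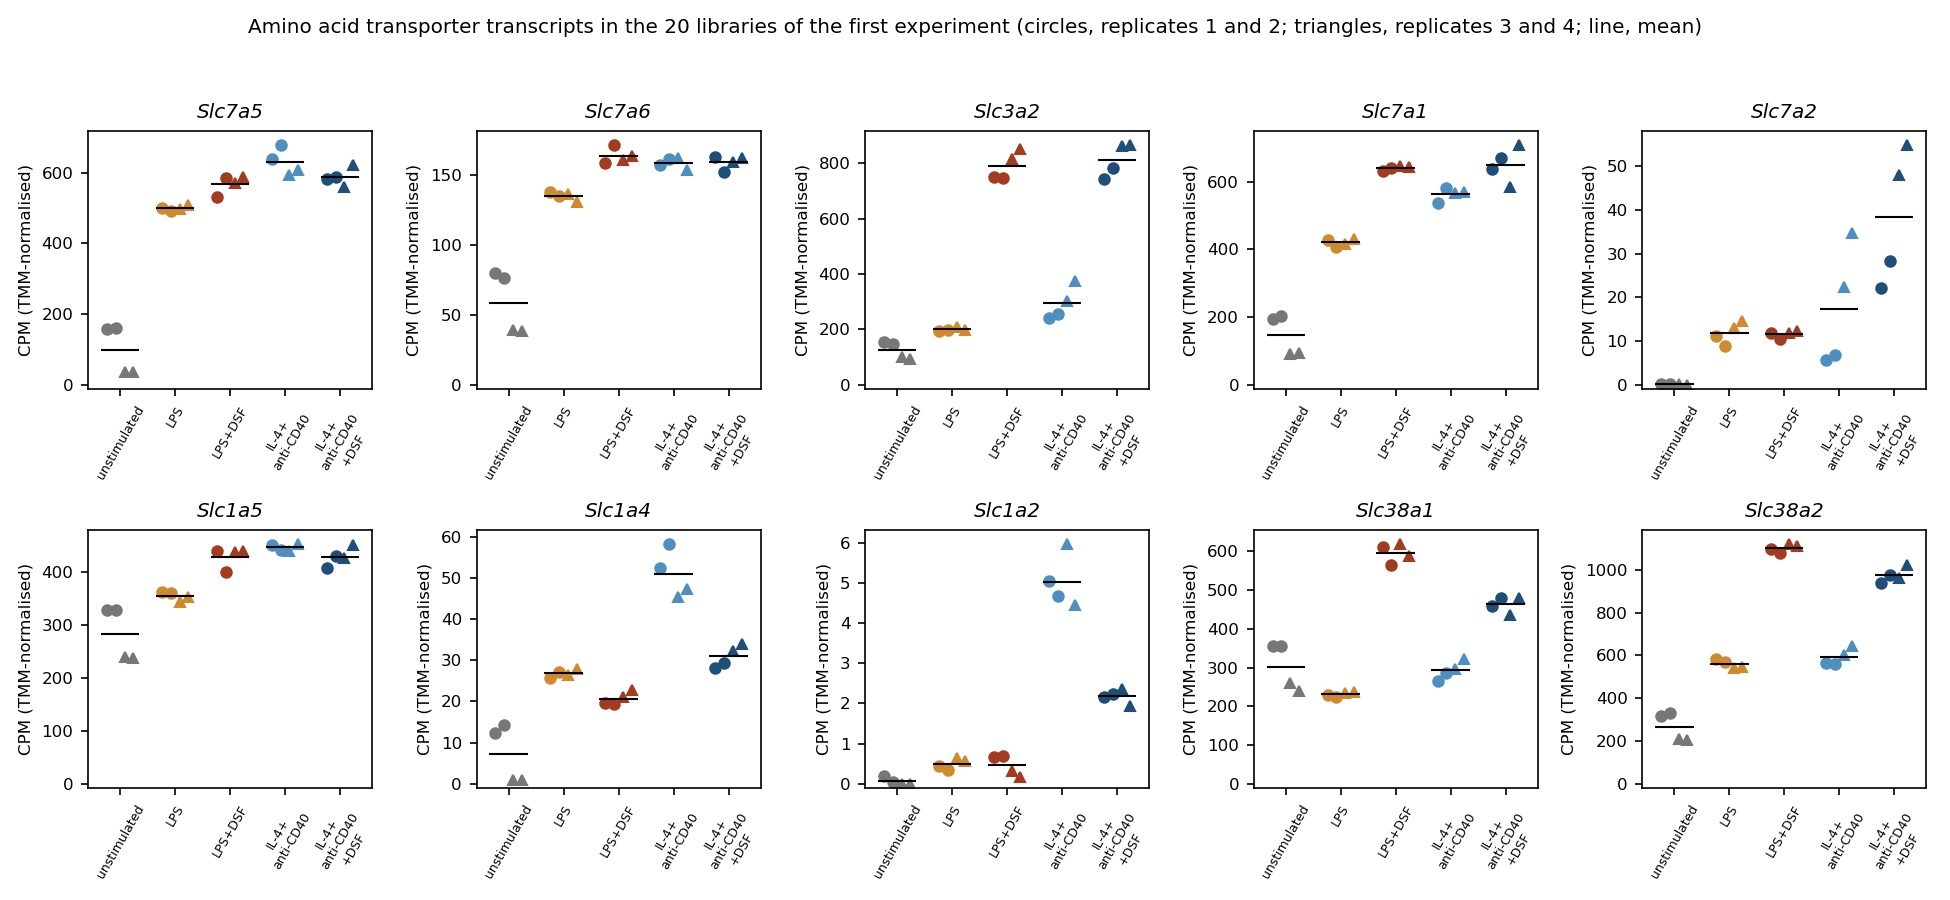
TMM-normalised CPM (y axis, linear) of the 10 transporter transcripts in each of the 20 libraries of the first experiment, by group (x axis), with circles for replicates 1 and 2, triangles for replicates 3 and 4 and a line at the mean. The unstimulated libraries divide by replicate pair in every panel but those of Slc7a2 and Slc1a2, which lie near 0, while Slc3a2, Slc38a1 and Slc38a2 are higher in every DSF library than in any library of the same stimulus without DSF.

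The first question was what 3 h of stimulation did to these transcripts. Of the 10 genes, 9 had enough counts to be tested with LPS, and 7 rose and 1 fell (quasi-likelihood test of edgeR with an adjusted p under 0.05, 4 libraries a group), where 29.6% of the 14477 genes tested rose and 33.3% fell. The median log2 fold change of the 9 was 1.21, against -0.05 over all genes tested. With IL-4+anti-CD40, 9 of 10 rose, where 30.4% of 14433 genes rose and 32.1% fell, and their median was 1.75 against -0.04. These comparisons share the unstimulated libraries and are not independent of each other.

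The light chain Slc7a5, the most abundant of the 10 after stimulation, lay above every unstimulated library in all 8 stimulated ones. It measured 158, 162, 35.3 and 36.2 CPM in the 4 unstimulated libraries and 499, 491, 497 and 507 CPM with LPS. With IL-4+anti-CD40 it measured 638, 677, 594 and 608 CPM, so every stimulated library lay far above the unstimulated ones and the spread was almost wholly in the unstimulated group. The log2 fold change was 2.36 for LPS (SE 0.52, edgeR adjusted p = 0.00366) and 2.75 for IL-4+anti-CD40 (SE 0.52 and adjusted p = 0.00153). Against unstimulated replicates 1 and 2 alone the rise with LPS was 1.65, and against replicates 3 and 4 alone it was 3.83.

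Its companions of the CD98 complex rose less. Slc7a6 went from 79.7, 76.5, 39.1 and 38.7 CPM to 138, 135, 136 and 131 CPM with LPS, a log2 fold change of 1.21 (SE 0.24, edgeR adjusted p = 0.00228), and one of 1.49 for IL-4+anti-CD40. The heavy chain Slc3a2 went from 153, 147, 101 and 94.3 CPM to 195, 199, 210 and 198 CPM with LPS, a log2 fold change of 0.70 (SE 0.16 and adjusted p = 0.00393). With IL-4+anti-CD40 Slc3a2 reached 240, 255, 304 and 375 CPM, a log2 fold change of 1.30 (SE 0.19 and adjusted p = 0.000366). For both genes the stimulated libraries did not overlap the unstimulated ones.

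Of the cationic transporters, CAT1 (Slc7a1) was present before stimulation and CAT2 (Slc7a2) was close to absent. Slc7a1 measured 195, 203, 90.4 and 93.7 CPM in unstimulated B cells and 407 to 431 CPM with LPS, a log2 fold change of 1.54 (SE 0.27, edgeR adjusted p = 0.0011). With IL-4+anti-CD40 it measured 537 to 580 CPM (2.01, SE 0.27, adjusted p = 0.000223). Slc7a2 had 6, 3, 2 and 0 counts in the unstimulated libraries. It had 233, 200, 245 and 261 counts with LPS, a rise of 6.68 on the log2 scale (SE 0.43 and adjusted p = 4.13e-06). With IL-4+anti-CD40 it had 122 and 146 counts in replicates 1 and 2 but 497 and 662 in replicates 3 and 4, and its log2 fold change was 7.27 (SE 0.86 and adjusted p = 0.000104). CAT2 is known as the arginine transporter that activated macrophages induce, and the summed level of the 10 myeloid markers was 622 to 693 CPM in all 4 of these libraries. The part of myeloid cells in the Slc7a2 counts was not tested.

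The SLC1 members ranged from a small rise to a rise from nearly nothing. ASCT2 (Slc1a5) measured 327, 328, 239 and 237 CPM in unstimulated B cells, 342 to 361 CPM with LPS and 440 to 452 CPM with IL-4+anti-CD40, with log2 fold changes of 0.33 (SE 0.12, edgeR adjusted p = 0.0377) and 0.71 (SE 0.12 and adjusted p = 0.000846). The call with LPS was lost when any LPS library, or unstimulated replicate 3 or 4, was left out (adjusted p = 0.0582 to 0.0863). It was also lost without the filter on low counts, and with total counts as the scaling, where the log2 fold change was 0.10. ASCT1 (Slc1a4) had the widest unstimulated spread, with 330 and 372 counts in replicates 1 and 2 and 22 and 20 in replicates 3 and 4. With LPS it had 501 to 623 counts, and the log2 fold change of 1.91 (SE 0.77) did not pass the test (adjusted p = 0.0573), although every LPS library lay above every unstimulated one. It passed without unstimulated replicate 1 (2.32, adjusted p = 0.0425) or 2 (2.50, adjusted p = 0.0269). Taken by pair, the rise was 1.01 against replicates 1 and 2 and 4.92 against replicates 3 and 4 (adjusted p = 3.84e-10 and 6.03e-18). Slc1a4 had 906 to 1259 counts with IL-4+anti-CD40 and rose by 2.89 on the log2 scale (SE 0.78 and adjusted p = 0.0102).

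The glutamate transporter Slc1a2 had 5, 1, 0 and 0 counts in unstimulated B cells and 9, 8, 12 and 10 with LPS. These were too few to pass the count filter of the main test. In the fit over all 20 libraries all 10 members were called, with Slc1a2 among the 9 that were higher with LPS. The same held against unstimulated replicates 1 and 2 alone, on these few counts. With IL-4+anti-CD40 it had 110, 101, 132 and 85 counts, and the log2 fold change was 6.32 (SE 0.58, edgeR adjusted p = 2.54e-05). A low level of this transcript was thus seen in every IL-4+anti-CD40 library, and in none of the LPS libraries did it exceed 12 counts.

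The system A transporters went different ways. SNAT2 (Slc38a2) measured 317, 331, 209 and 204 CPM in unstimulated B cells, 582, 569, 541 and 547 CPM with LPS and 564, 559, 603 and 643 CPM with IL-4+anti-CD40, rising by 1.08 (SE 0.16, edgeR adjusted p = 0.000462) and 1.21 (SE 0.17 and adjusted p = 0.00023) on the log2 scale. SNAT1 (Slc38a1) measured 355, 355, 260 and 239 CPM in unstimulated B cells and 229, 224, 234 and 237 CPM with LPS, and was the only member to fall (log2 fold change -0.39, SE 0.13, adjusted p = 0.0288). The call was lost when any LPS library, or unstimulated replicate 1 or 2, was left out (adjusted p = 0.0585 to 0.0897), and against unstimulated replicates 3 and 4 alone the value was -0.08 (adjusted p = 0.141). With IL-4+anti-CD40, Slc38a1 measured 265, 287, 296 and 323 CPM, within the unstimulated range, with a log2 fold change of 0.01 (SE 0.14 and adjusted p = 0.966). Its sign against the unstimulated group depended on the pair, at -0.25 against replicates 1 and 2 and 0.30 against replicates 3 and 4.

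**Figure D2:**
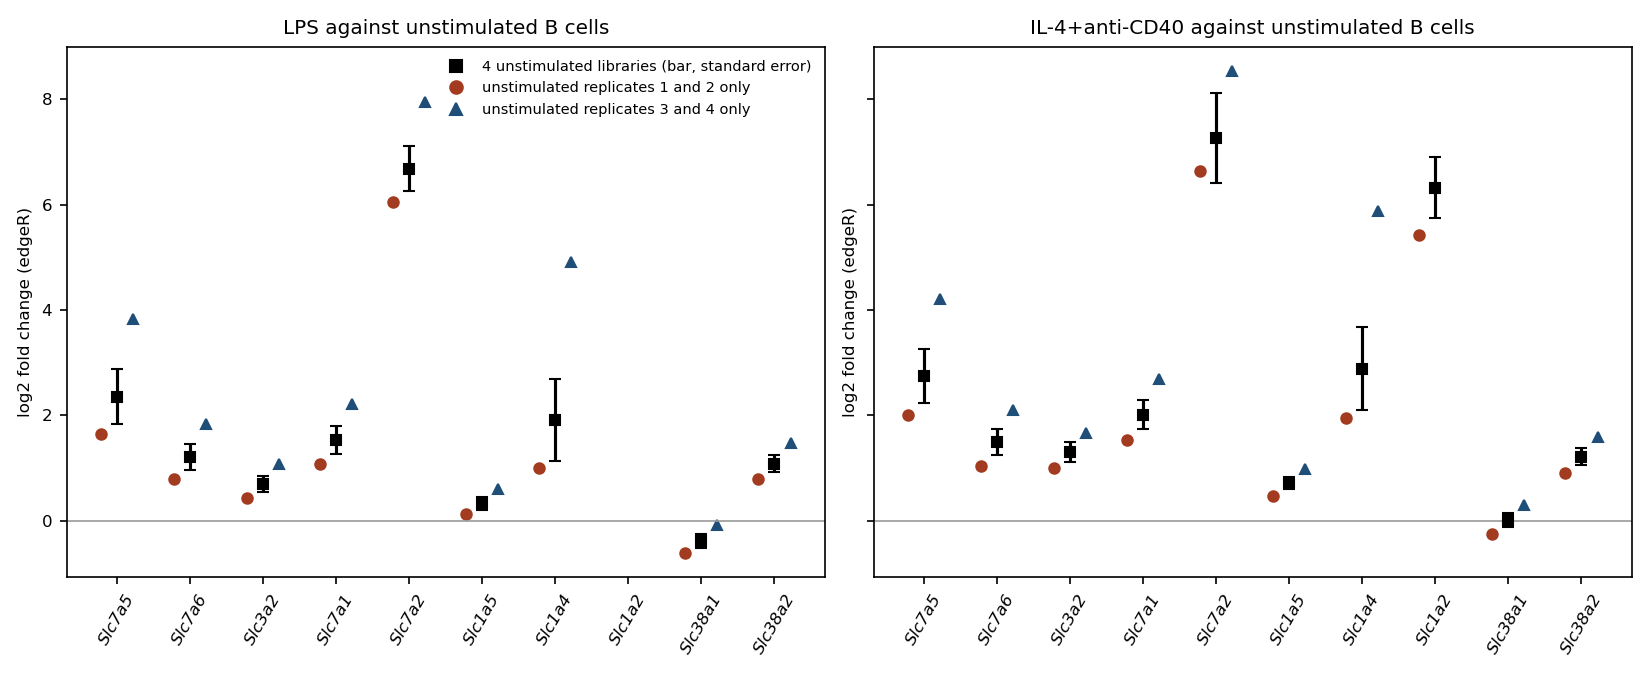
The log2 fold change from edgeR (y axis) of each transporter (x axis) with LPS (left) and with IL-4+anti-CD40 (right) against all 4 unstimulated libraries (squares, with the standard error), against unstimulated replicates 1 and 2 (circles) and against replicates 3 and 4 (triangles). The triangles lie above the circles throughout, most for Slc1a4 (4.92 against 1.01 with LPS). Slc1a2 did not pass the count filter of the main test with LPS and is not shown there. With IL-4+anti-CD40 it has no triangle because both libraries had 0 counts.

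LPS and IL-4+anti-CD40 were then compared directly, which leaves the unstimulated libraries out. With IL-4+anti-CD40, 8 of the 10 transporters were higher than with LPS, where 17.3% of the 14078 genes tested were higher and 22.3% lower. The largest difference was in Slc1a2, at 3.35 on the log2 scale (SE 0.21, edgeR adjusted p = 1.29e-07), with 0.35 to 0.631 CPM with LPS and 4.46 to 5.96 CPM with IL-4+anti-CD40. Slc1a4 followed at 0.92 (SE 0.08 and adjusted p = 2.83e-06), with 25.7 to 28.0 against 45.5 to 58.3 CPM. The differences for Slc3a2, Slc7a1, Slc38a1, Slc7a5, Slc1a5 and Slc7a6 were between 0.22 and 0.54. In a fit over all 20 libraries, 4 of the 8 remained past the threshold, and Slc1a4, Slc7a1, Slc7a5 and Slc7a6 did not. Slc38a2 did not pass (0.08, adjusted p = 0.282). Slc7a2 did not pass either (0.54, SE 0.48, adjusted p = 0.403), and its direction depended on the libraries: with replicates 1 and 2 of each group it was lower under IL-4+anti-CD40 (-0.68, adjusted p = 0.00159), and with replicates 3 and 4 it was higher (1.05, adjusted p = 0.000677).

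The next question was how 1 μM DSF changed these transcripts in LPS-stimulated B cells. Of the 10 genes, 7 rose and 1 fell, where 35.1% of the 14154 genes tested rose and 36% fell, and their median log2 fold change was 0.29 against 0.00 over all genes. The CD98 heavy chain Slc3a2 and the system A transporters Slc38a1 and Slc38a2 moved most. Slc3a2 went from 195, 199, 210 and 198 CPM to 750, 747, 817 and 851 CPM, a 4-fold rise (log2 fold change 2.00, SE 0.05, edgeR adjusted p = 4.93e-22). Slc38a1, which LPS alone had not raised, went from 229, 224, 234 and 237 CPM to 613, 565, 618 and 587 CPM (1.39, SE 0.04, adjusted p = 1.82e-19). Slc38a2 went from 582, 569, 541 and 547 CPM to 1096, 1081, 1120 and 1112 CPM (0.99, SE 0.04, adjusted p = 4.27e-17). The DSF libraries of these genes lay above all LPS libraries, and the values stayed between 1.79 and 2.03 for Slc3a2, 1.18 and 1.40 for Slc38a1 and 0.79 and 1.04 for Slc38a2 over 16 alternative settings.

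The light chains and the other carriers changed less. CAT1 (Slc7a1) rose from 407 to 431 CPM to 631 to 645 CPM (0.62, SE 0.04, edgeR adjusted p = 2.03e-13). Slc7a5 had a log2 fold change of 0.21 (adjusted p = 4.26e-05), Slc7a6 of 0.29 (adjusted p = 3.52e-07) and Slc1a5 of 0.29 (adjusted p = 1.06e-06). These small rises depended on the scaling: with total counts, which moved the median of all genes from 0.00 to -0.21, Slc7a5 was at -0.00126, Slc7a6 at 0.08 and Slc1a5 at 0.08, and none of them passed. In the fit over all 20 libraries Slc1a5 passed (adjusted p = 0.0118) and Slc7a5 and Slc7a6 did not. ASCT1 (Slc1a4) fell from 25.7, 27.2, 26.3 and 28.0 CPM to 19.5, 19.4, 21.0 and 22.7 CPM (-0.36, SE 0.07, adjusted p = 7.7e-05), a call lost in the fit over all 20 libraries (-0.38, adjusted p = 0.514). Slc7a2 measured 8.75 to 14.6 CPM without and 10.5 to 12.3 CPM with DSF, and its log2 fold change of 0.00 had an SE of 0.12 (adjusted p = 0.99). Slc1a2 had 3 to 12 counts with DSF, too few to show a change of moderate size.

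In B cells stimulated with IL-4+anti-CD40, DSF raised 3 of the 10 genes and lowered 4, where 30.1% of the 14275 genes tested rose and 31.6% fell, and the median log2 fold change was 0.04 against -0.02 over all genes. The genes that rose were again Slc3a2, Slc38a1 and Slc38a2, and those that fell were Slc1a2, Slc1a4, Slc7a5 and Slc1a5. Slc3a2 went from 240, 255, 304 and 375 CPM to 745, 782, 863 and 865 CPM (log2 fold change 1.41, SE 0.12, edgeR adjusted p = 2.93e-06). Slc38a2 went from 564, 559, 603 and 643 CPM to 940, 979, 965 and 1023 CPM (0.66, SE 0.06, adjusted p = 3.04e-06). Slc38a1 went from 265, 287, 296 and 323 CPM to 460, 481, 436 and 479 CPM (0.61, SE 0.06, adjusted p = 8.43e-06). No library overlapped between the groups for these genes.

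The glutamate transporter Slc1a2 and ASCT1 (Slc1a4), which separated IL-4+anti-CD40 most clearly from LPS, fell with DSF. Slc1a2 went from 110, 101, 132 and 85 counts to 43, 43, 51 and 42 counts, a 2.41-fold decrease (log2 fold change -1.27, SE 0.15, edgeR adjusted p = 1.98e-05). Slc1a4 went from 52.6, 58.3, 45.5 and 47.5 CPM to 28.1, 29.3, 32.4 and 34.1 CPM (-0.78, SE 0.09, adjusted p = 2.48e-05), a call lost in the fit over all 20 libraries (adjusted p = 0.191). Slc7a5 (-0.16, SE 0.06, adjusted p = 0.0345) and Slc1a5 (-0.12, SE 0.05, adjusted p = 0.0471) lay near the threshold and their groups overlapped. The Slc7a5 call was lost without IL-4+anti-CD40 replicate 1 or 2 or DSF replicate 1, 2 or 3 (adjusted p = 0.0659 to 0.137), and the Slc1a5 call without any library but DSF replicate 4 (adjusted p = 0.0602 to 0.126). With DESeq2 neither passed (adjusted p = 0.052 for Slc7a5 and 0.0735 for Slc1a5).

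For CAT2 (Slc7a2) the DSF result followed the replicate pairs. It measured 5.59 and 6.76 CPM in replicates 1 and 2 and 22.5 and 34.7 CPM in replicates 3 and 4 of the IL-4+anti-CD40 group, and adding DSF gave 22.1, 28.3, 47.9 and 54.8 CPM. Over 4 libraries a group the log2 fold change was 1.09 (SE 0.50) and did not pass (edgeR adjusted p = 0.0755). Within the pairs it was 1.96 for replicates 1 and 2 (adjusted p = 1.71e-10) and 0.81 for replicates 3 and 4 (adjusted p = 0.000507), and it passed when IL-4+anti-CD40 replicate 4 was left out (1.66, adjusted p = 0.00532) and in the fit over all 20 libraries (1.15, adjusted p = 0.0229). Slc7a1 measured 537 to 580 CPM without and 583 to 707 CPM with DSF (0.14, SE 0.06, adjusted p = 0.0633), passing without DSF replicate 3 (0.19, adjusted p = 0.00994) and with DESeq2 (0.16, adjusted p = 0.033). Slc7a6 did not pass (-0.05, adjusted p = 0.318).

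Whether DSF acted alike under the stimuli was tested as an interaction over the 16 stimulated libraries. The DSF effect was lower with IL-4+anti-CD40 than with LPS for 8 of the 10 transporters, where 7.92% of the 15130 genes tested were lower and 6.96% higher, and their median difference was -0.41 against -0.02 over all genes. Slc38a1 differed most, by -0.77 on the log2 scale (edgeR adjusted p = 8.99e-07): DSF raised it by 1.39 in LPS and by 0.61 in IL-4+anti-CD40. For Slc3a2 the difference was -0.58 (adjusted p = 0.0052), for Slc7a1 -0.47 (adjusted p = 0.000157) and for Slc1a4 -0.42 (adjusted p = 0.0215). Slc1a5, Slc7a5, Slc7a6 and Slc38a2 differed by -0.41 to -0.33. This test shares its libraries without DSF with the direct comparison of the stimuli, and these results are not independent. With DSF, mean levels in LPS and in IL-4+anti-CD40 were 791 and 814 CPM for Slc3a2 and 639 and 649 CPM for Slc7a1. Those of Slc7a5 were 569 and 588, of Slc1a5 429 and 428 and of Slc7a6 163 and 159 CPM. Levels lay further apart for Slc38a1 (596 and 464 CPM), Slc38a2 (1103 and 977) and Slc1a4 (20.65 and 30.99). Without LPS+DSF replicate 4 the Slc1a4 difference no longer passed (-0.37, adjusted p = 0.0542). In a fit over all 20 libraries the differences kept their direction, at -0.26 to -0.70, but Slc38a1 alone passed (-0.70, adjusted p = 0.00514). The summed myeloid markers fell with DSF from 1303 to 1396 CPM to 952 to 1001 CPM under LPS and were at 726 to 833 CPM with DSF against 622 to 693 CPM under IL-4+anti-CD40. With DSF in LPS, 3 of 10 myeloid markers rose and 4 fell (edgeR, adjusted p under 0.05), where 35.1% of all genes rose and 36% fell. With DSF in IL-4+anti-CD40, 5 of 9 tested rose and 0 fell, where 30.1% of all genes rose and 31.6% fell. The summed B-cell markers fell with DSF from 5508 to 5642 CPM to 4266 to 4521 CPM under LPS. Under IL-4+anti-CD40 they fell from 7162 to 8682 CPM to 5352 to 5495 CPM. Of the 10 B-cell markers, 1 rose and 8 fell with DSF in LPS, and 3 rose and 6 fell in IL-4+anti-CD40, beside the same shares over all genes. The part of these markers in the transporter results was not tested.

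Of the remaining members, Slc1a2 had a difference of -1.21 (adjusted p = 0.0575), which passed without IL-4+anti-CD40 replicate 4 (adjusted p = 0.0493) or LPS+DSF replicate 4 (adjusted p = 0.0123) and with DESeq2 (adjusted p = 0.0373), and was -2.01 in replicates 1 and 2 but -0.059 in replicates 3 and 4. Slc7a2 had a difference of 1.10 in the opposite direction (adjusted p = 0.214), which passed without IL-4+anti-CD40 replicate 4 (1.66, adjusted p = 0.0192), without the filter on low counts (1.12), and within replicates 1 and 2 (1.78) and replicates 3 and 4 (0.97).

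**Figure D3:**
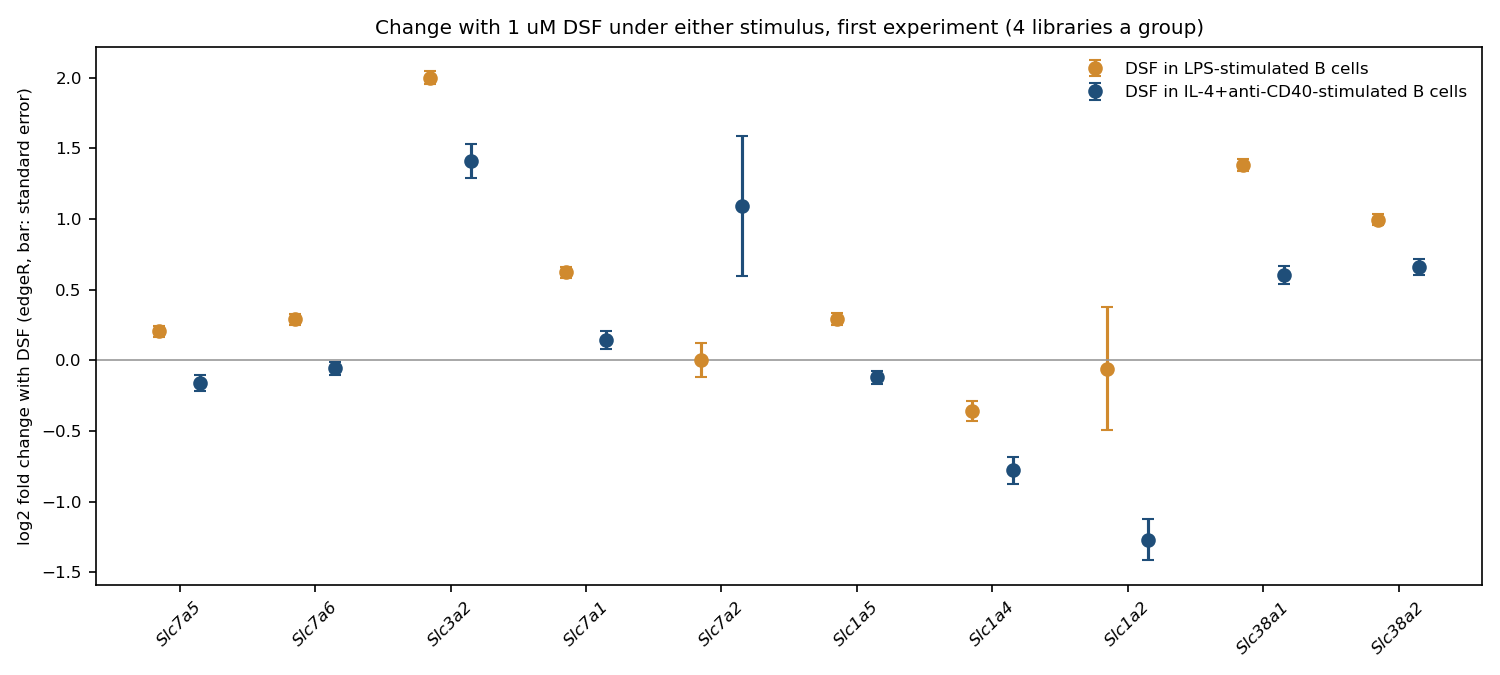
The log2 fold change with DSF from edgeR (y axis, bars are standard errors) of each transporter (x axis) under LPS or under IL-4+anti-CD40 in the first experiment, 4 libraries a group. Slc3a2, Slc38a1 and Slc38a2 rose under either stimulus, with 2.00, 1.39 and 0.99 for LPS above 1.41, 0.61 and 0.66 for IL-4+anti-CD40, and Slc1a2 and Slc1a4 fell with IL-4+anti-CD40.

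Set against unstimulated B cells, the combination of stimulus and DSF left most of these transcripts above the resting level. With LPS and DSF 8 of 9 tested genes were higher, where 34.3% of 14663 genes were higher and 37.3% lower, and 10 of 10 were when DSF was added to IL-4+anti-CD40, where 33.4% of 14678 genes were higher and 35.3% lower. Slc3a2 was 2.67 and 2.72 above the unstimulated level on the log2 scale and Slc38a2 2.05 and 1.89 (edgeR). Slc38a1, which passed as higher with neither stimulus over 4 libraries, was 0.97 above it in the LPS and 0.62 in the IL-4+anti-CD40 cells given DSF. With total counts as the scaling the latter value was 0.31 and did not pass (adjusted p = 0.0961), and neither did Slc1a5 under either stimulus with DSF (0.18 and 0.29), so that 7 rather than 8 and 7 rather than 10 genes were higher. Slc7a2 was 8.37 above it with IL-4+anti-CD40 and DSF. Slc1a4 did not pass with LPS and DSF (1.51, adjusted p = 0.106), though it did without unstimulated replicate 2 (2.05, adjusted p = 0.0459). With IL-4+anti-CD40 and DSF it passed (2.11, adjusted p = 0.0365), but not with total counts as the scaling (1.78) or when any of the 4 DSF libraries was left out (adjusted p = 0.064 to 0.0717).

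The CD98 heavy chain pairs with further light chains, which were followed from a hand-written list of Slc7a7, Slc7a8, Slc7a10 and Slc7a11. Slc7a11 encodes xCT, which imports cystine, and it rose with DSF alongside Slc3a2. It measured 50.1 to 63.7 CPM with LPS and 119 to 135 CPM with LPS and DSF, a log2 fold change of 1.22 (SE 0.06, edgeR adjusted p = 3.05e-15). With IL-4+anti-CD40 it measured 5.41 to 22.4 CPM and with DSF 26.4 to 63.5 CPM, a log2 fold change of 1.96 (SE 0.40 and adjusted p = 0.00119). Its unstimulated libraries held 725, 762, 5 and 5 counts, the same division into pairs that Slc1a4 showed. Slc7a8 (LAT2) rose with DSF under either stimulus (0.71 and 1.60), Slc7a7 (y+LAT1) fell (-0.71 and -0.33), and Slc7a10 had too few counts to be tested.

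Beyond these, a list of 47 further amino acid transporters that includes those light chains had 11 genes that rose and 4 that fell among 19 tested with DSF in LPS, and 12 that rose and 5 that fell among 20 tested with DSF in IL-4+anti-CD40. Over all genes these shares were 35.1% and 36% in LPS and 30.1% and 31.6% in IL-4+anti-CD40. With LPS alone 5 of 19 rose and 12 fell, where 29.6% and 33.3% of all genes did, and the median of their log2 fold changes was -0.37 beside 1.21 for the 9 members tested. Slc43a2, a carrier of branched-chain amino acids, fell by 2.98 (log2) with LPS and rose by 1.31 with DSF in LPS. Slc15a3, a lysosomal histidine and peptide transporter, rose by 2.46 in LPS and 2.83 in IL-4+anti-CD40.

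Among 28 enzymes of amino acid metabolism, 10 of 23 tested rose and 3 fell with LPS, where 29.6% and 33.3% of all genes did. With IL-4+anti-CD40 12 of 24 rose and 3 fell, where 30.4% and 32.1% of all genes did. With DSF in LPS 8 of 24 rose and 9 fell, about the shares over all genes (35.1% and 36%). With DSF in IL-4+anti-CD40 4 rose and 12 fell, where 30.1% and 31.6% of all genes did. Srm, the spermidine synthase of the polyamine pathway that starts from ornithine, rose by 2.13 with LPS and fell by 0.93 when DSF was added. Of 25 genes of amino acid sensing, 10 rose and 12 fell with DSF in LPS and 10 rose and 9 fell in IL-4+anti-CD40, where 35.1% and 36% of all genes did in LPS and 30.1% and 31.6% in IL-4+anti-CD40. Rragd, a Rag GTPase that couples amino acids to mTORC1, rose by 3.51 and 2.03, and Ddit3, which encodes the stress-induced factor CHOP, by 2.01 and 1.24. Nprl3, a subunit of the GATOR1 complex that restrains mTORC1, fell by 1.25 and 1.29, and the Ragulator subunits Lamtor2 and Lamtor4 fell by 1.26 in LPS and 0.75 in IL-4+anti-CD40, respectively. Atf4, whose product drives amino acid transporter genes under amino acid shortage, rose by 0.56 and 0.39, and its known target Sesn2 by 1.08 and 0.21 (edgeR, adjusted p between 1.51e-15 and 0.0135 for these Atf4 and Sesn2 values). Atf4 and, for DSF, Sesn2 were named after their values were seen.

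The start regions of these genes are shown for members that DSF raised in LPS (Slc38a2 and Slc7a1) and for the member it lowered (Slc1a4), the former chosen because their windows hold the letters searched. RefSeq start sites of GRCm38.p6 gave 8 windows of 250 bases directly upstream for 6 of the 10 members: Slc1a2, Slc1a4, Slc38a2, Slc3a2, Slc7a1 and Slc7a6. The letters TGACNNNGC, the core bound by NRF2, were searched on both strands and are in capitals. The windows lie on the minus strand at chr15:96699729-96699978 for Slc38a2, chr5:148399905-148400154 for Slc7a1 and chr11:20332714-20332963 for Slc1a4, and are printed 5′ to 3′ in the direction of the gene.
Slc38a2: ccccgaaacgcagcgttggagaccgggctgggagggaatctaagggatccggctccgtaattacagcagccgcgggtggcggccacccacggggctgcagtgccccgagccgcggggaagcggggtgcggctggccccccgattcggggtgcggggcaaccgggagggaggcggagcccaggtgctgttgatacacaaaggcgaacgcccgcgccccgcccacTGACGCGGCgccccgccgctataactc
Slc7a1: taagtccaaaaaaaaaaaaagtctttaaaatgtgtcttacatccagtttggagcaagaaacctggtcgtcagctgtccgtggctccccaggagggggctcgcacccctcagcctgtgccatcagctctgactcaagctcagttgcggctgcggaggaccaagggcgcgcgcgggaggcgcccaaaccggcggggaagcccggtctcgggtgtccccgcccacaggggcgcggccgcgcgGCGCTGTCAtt
Slc1a4: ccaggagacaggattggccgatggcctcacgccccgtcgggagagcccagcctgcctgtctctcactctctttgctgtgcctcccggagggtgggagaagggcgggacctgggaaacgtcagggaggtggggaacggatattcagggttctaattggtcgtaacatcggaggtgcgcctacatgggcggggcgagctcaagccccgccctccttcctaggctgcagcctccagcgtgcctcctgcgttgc
The NRF2 letters were in 3 of the 8 windows, those of Slc38a2 and Slc7a1 above and 1 of the 2 for Slc7a6, and in 10.2% of the 32851 windows of all genes. They end 19 bases before the start of Slc38a2 and 3 bases before that of Slc7a1, where they lie on the opposite strand, and they do not overlap the other motifs searched. The windows of Slc3a2, the member that DSF raised most, of Slc1a4 and of Slc1a2, and the other windows of Slc7a1 and Slc7a6, have none. The Slc3a2 window (chr19:8713898-8714147) lies inside the gene, which spans 8706882 to 8723369 on the minus strand. That of Slc1a2 (chr2:102706188-102706437) lies inside its span of 102658659 to 102790784 on the plus strand. The far 5′ ends of both spans were not searched. TGATGNAA, the core of the composite site of ATF4 and C/EBP factors, was in 3.45% of all windows, the STAT6 letters TTC and GAA with any 4 bases between them were in 5.85%, and CACGTG, bound by MYC, in 6.02%, and none of these was in the 8 windows. A loose kappa B site, GGG and CC with any 5 bases between them and not shown in capitals, was in 45.8% of all windows and in 5 of the 8. These matches describe letters in the windows only.

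In gene position, Slc7a5, Slc7a6 and Slc7a2 lie on chromosome 8 and Slc38a1 and Slc38a2 on chromosome 15 of GRCm38 (mm10), with Slc38a1 from 96571418 to 96642913 and Slc38a2 from 96687392 to 96699730, both on the minus strand. Slc3a2 spans 8706882 to 8723369 on chromosome 19. Slc7a2, Slc7a5 and Slc1a2 each overlap a predicted gene on the opposite strand. These predicted genes had at most 3 counts in any library of the first experiment.

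The genes most like Slc7a2 and Slc1a2 in pattern were sought over the 20 libraries, which share their groups, by Pearson's r of log2 CPM. For Slc7a2 the closest was Tarm1, a receptor of myeloid cells (r = 0.991), followed by Tnfrsf8, which encodes CD30 (r = 0.971), and the fifth gene had r = 0.955. For Slc1a2 it was Ahr, the aryl hydrocarbon receptor (r = 0.967), then Tk1, a thymidine kinase (r = 0.965), and the fifth had r = 0.96.

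The second experiment gave 1 library per group, so its ratios have no replicate check and no test, and the intervals below cover counting error only. Total counts were between 16049295 and 24619776. Of the transporters, 3 were at least 2-fold higher with DSF in LPS, where 20.3% of 14275 genes were, and 3 with DSF in IL-4+anti-CD40, where 21.9% were. They were Slc3a2, Slc38a1 and Slc38a2 each time. At least 2-fold lower were 1 transporter in LPS (Slc7a2) and 3 in IL-4+anti-CD40 (Slc7a2, Slc1a2 and Slc1a4), where 19.5% and 20.3% of genes were. Slc3a2 went from 237 to 1396 CPM with LPS and from 351 to 1379 CPM with IL-4+anti-CD40, log2 ratios of 2.56 and 1.98. Slc38a1 had log2 ratios of 1.96 and 1.77 and Slc38a2 of 1.67 and 1.32, all larger than the values of the first experiment.

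Slc1a2 and Slc1a4 were again lower with DSF in IL-4+anti-CD40. Slc1a2 went from 59 to 8 counts, a 5.67-fold decrease in CPM (95% counting interval 2.70 to 13.8), and Slc1a4 from 70.7 to 26.0 CPM, a log2 ratio of -1.44. With LPS, Slc1a4 went from 36.0 to 26.4 CPM (-0.45). Slc7a1 had log2 ratios of 0.94 and 0.29 with DSF in LPS and in IL-4+anti-CD40, and Slc1a5 had one of 0.81 in LPS.

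Other members did not follow the first experiment throughout. Slc7a5 and Slc7a6, which had risen slightly with DSF in LPS, were lower in the second experiment, at -0.35 and -0.66. With DSF in IL-4+anti-CD40 Slc7a5 was lower in both experiments, at -0.16 in the first and -0.93 in the second. Slc1a5, at -0.12 with DSF in IL-4+anti-CD40 in the first experiment, was at 0.35 in the second. CAT2 (Slc7a2) differed most. Its unstimulated library held 54 counts, where those of the first experiment held 0 to 6, and its LPS library 43, a log2 ratio of -0.083. With DSF it went from 43 counts to 1 with LPS, a 40.0-fold decrease in CPM (95% counting interval 6.81 to 1617), and from 90 counts to 3 with IL-4+anti-CD40 (23.1-fold, 7.65 to 114). Beside it, the summed myeloid markers without DSF were 837 CPM in the LPS and 791 CPM in the IL-4+anti-CD40 library. They were 1819 and 1662 CPM when DSF was added. The summed B-cell markers, which fell with DSF in the first experiment, were 6480 and 5887 CPM without and 9327 and 8216 CPM with it. The myeloid markers did not move together: Mpeg1 had 2059 counts with LPS and 15749 when DSF was added, and 2507 and 11494 with IL-4+anti-CD40, while Itgam went from 224 to 38 and 210 to 39 counts and Clec7a from 648 to 242 and 630 to 223. The part of other cells in the Slc7a2 counts was not tested.

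Against the unstimulated library of the second experiment, the light chains and CAT1 were again higher. With LPS against the unstimulated library 5 transporters were at least 2-fold higher, where 8.62% of genes were higher and 9.88% lower, and with IL-4+anti-CD40 also 5, where 10.7% were higher and 13.7% lower. Slc7a5 had log2 ratios of 1.57 and 2.07, Slc7a1 of 1.33 and 1.75, Slc1a4 of 1.20 and 2.17 and Slc7a6 of 1.02 and 1.05. Slc1a2 had 0 counts in the unstimulated library, 8 in the LPS and 59 in the IL-4+anti-CD40 library, so that it was at least 3.15-fold and at least 23.1-fold higher against a floor of 3 counts in that library, taking the 8 and 59 counts as exact. The lower 95% counting bounds of these ratios were 2.02 and 18.2.

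With ibrutinib the ratios stayed small. No transporter moved 2-fold with ibrutinib in LPS, where 2.81% of genes were at least 2-fold higher and 2.47% lower, or in IL-4+anti-CD40, where 2.23% were higher and 1.69% lower. Slc3a2 measured 183 CPM with LPS and ibrutinib and 254 CPM with IL-4+anti-CD40 and ibrutinib, log2 ratios of -0.37 and -0.46, against 2.56 and 1.98 with DSF. Slc38a1 was at -0.04 and -0.14 and Slc38a2 at 0.08 and 0.13. The largest ratios with ibrutinib were those of Slc7a2, which went from 43 to 104 counts with LPS and from 90 to 236 counts with IL-4+anti-CD40, ratios in CPM of 1.85 (95% counting interval 1.28 to 2.70) and 1.85 (1.45 to 2.39). DSF and ibrutinib were given at the same concentration but are unrelated compounds, and their difference was not tested.

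**Figure D4:**
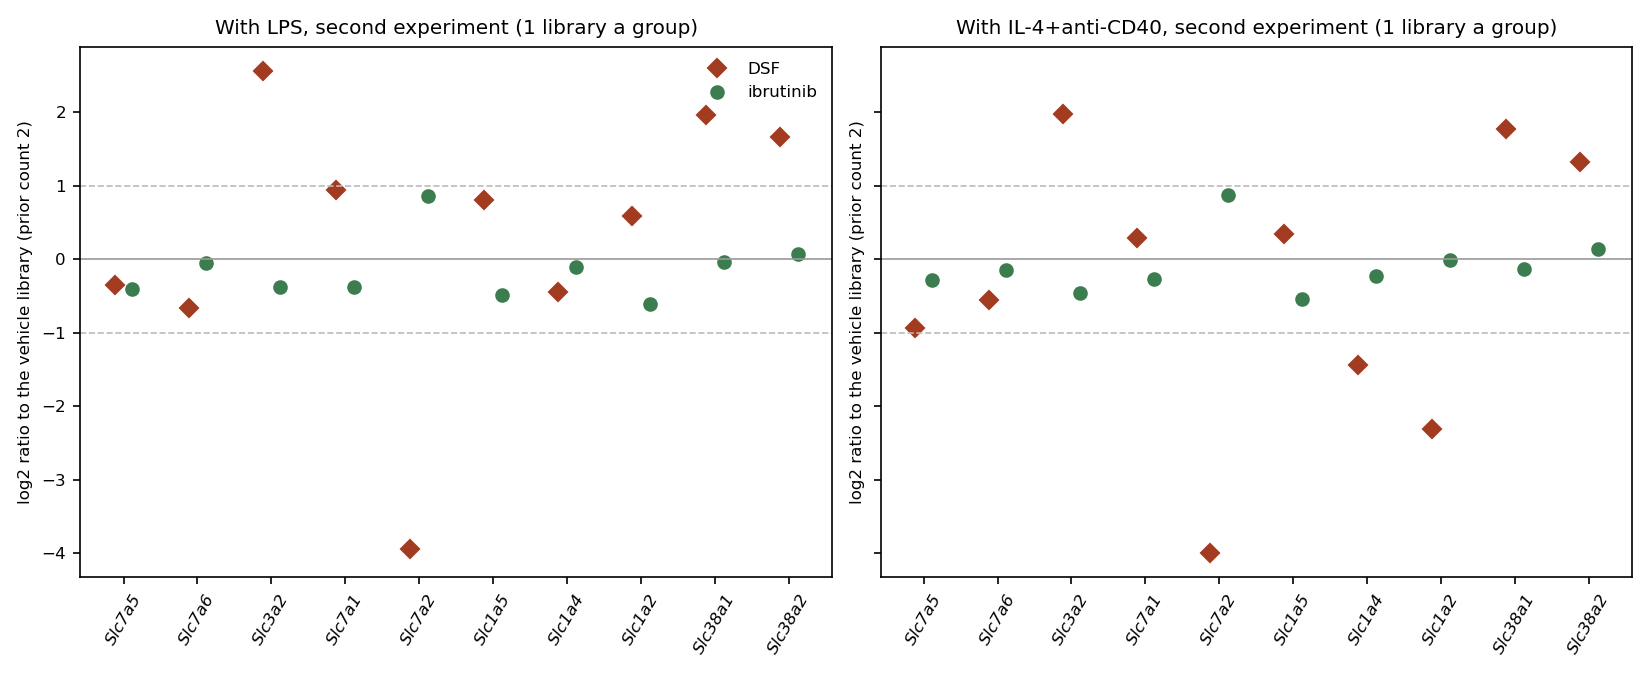
The log2 ratio (y axis, prior count of 2, TMM-normalised) of each transporter (x axis) with DSF (diamonds) or ibrutinib (circles) to the library with the same stimulus and vehicle in the second experiment, 1 library a group, with dashed lines at 2-fold. With DSF, Slc3a2, Slc38a1 and Slc38a2 lie above the upper line under either stimulus and Slc7a2 lies far below the lower line, while every ibrutinib ratio lies between the lines.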

How the data were processed

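Poly-A selected RNA of cultured splenic B cells was sequenced. The authors cleaned the reads in Fastp, aligned them against mm10 using HISAT2 2.0.5 and counted them per gene with featureCounts 1.5.0-p3, and they deposited the raw counts of 54532 genes in 27 libraries. They also deposited FPKM made from these counts, which were used here only to compare levels between genes. The annotation release and strand setting are not given in the sources used here. The labels do not say whether replicates came from separate mice, so p-values measure the spread between these libraries.

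Counts of the first experiment were tested with edgeR 4.0.16 in R 4.3.3 (quasi-likelihood, TMM, filterByExpr), with 8 libraries per comparison and 16 for the interaction. The p-values were adjusted over all genes tested by the Benjamini-Hochberg method and called under 0.05. On simulated data for DSF in LPS, edgeR recovered 99 of 100 planted 4-fold and 87 of 100 planted 2-fold changes, with 16 false calls among 14154 genes. For IL-4+anti-CD40 against unstimulated B cells it recovered 93 and 56 of 100, with 8 false calls among 14433 genes. The simulated data had few planted changes, balanced in direction, and independent replicates. They lack the large share of changed genes and the replicate pairs of the real libraries, and do not test these. For the second experiment, log2 ratios were TMM-normalised with a prior count of 2, and the genes kept averaged 10 counts or more. Counting intervals were exact binomial at 95%. The libraries held 16049295 to 24619776 counts in all, so that members under 1 CPM rest on few reads.

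Alternatives were DESeq2 1.42.0, its size factors, total counts, no count filter, 1 fit of 20 libraries, a replicate block, single replicate pairs and leaving out each library, and for the second experiment a prior count of 0.5, total counts and a minimum average of 50 counts. The 10 transporters and the gene lists were chosen with earlier results of these data known. Genes named were all 10 transporters, the 4 further CD98 light chains, the genes most like Slc7a2 and Slc1a2, and, from each other list and comparison, at most 2 per direction with the greatest change, provided that the adjusted p was under 0.05 and the higher group had 10 counts or more throughout. A selection of these is given, and 1 gene of the rule is not reported here. Atf4 and, for DSF, Sesn2 were added after their values were seen. Promoter windows came from RefSeq (GRCm38.p6) and gene positions from the deposited tables.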

Additional observations from a re-analysis of the deposited data

Results flagged for a closer look

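A difference between the stimuli in the DSF effect was found by the interaction test for 8 of the 10 transporters, each with a lower log2 effect with IL-4+anti-CD40 than with LPS: Slc38a1 (-0.77), Slc3a2 (-0.58), Slc7a1 (-0.47), Slc1a4 (-0.42), Slc1a5 (-0.41), Slc7a5 (-0.36), Slc7a6 (-0.34) and Slc38a2 (-0.33). In this test 7.92% of all genes were lower. It shares its libraries without DSF with the comparison of IL-4+anti-CD40 against LPS, so these results are not independent.

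In the second experiment 3 log2 ratios ran against every library of the first: Slc7a5 (-0.35) and Slc7a6 (-0.66) with DSF in LPS, and Slc7a2 with LPS against unstimulated B cells (-0.083). The difference between the experiments was not tested.

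The Slc1a5 level of 1 LPS+DSF library (replicate 2), 399 CPM, lay apart from the other replicates at 438 to 439 CPM by Dixon's criterion. It was the 1 such library among 50 groups examined, where chance alone gives about 1 in 20.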

How the results depend on the processing

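Most calls held across the alternatives run for single transporters. Of these, 1430 kept their side of the threshold or stayed within the spread, 68 lost a call, 39 gained one, 33 moved and 4 reversed. Slc1a2 with LPS, with or without DSF, against unstimulated B cells had no main test and is not in these counts. A reversal needed a call in either fit, so a change of sign without a call was counted as kept. For example, Slc1a2 with DSF in LPS ran from -1.28 to 0.78 over 16 alternatives, all counted as kept. The reversals were Slc38a1 with IL-4+anti-CD40 against unstimulated replicates 1 and 2 (-0.25) or with replicates 1 and 2 of each group (-0.31), Slc7a2 with IL-4+anti-CD40 against LPS in replicates 1 and 2 (-0.68), and Slc7a5 with DSF in LPS under total counts (-0.00126). In each case but the last the libraries left out are those of the other replicate pair, and otherwise the cause was not tested.

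With LPS against unstimulated B cells, the lower count went from 1 to 0 with the replicate block, with unstimulated replicates 3 and 4 only and with replicates 3 and 4 of each group, and ranged from 0 to 1 without single libraries. With IL-4+anti-CD40 against unstimulated B cells it went from 0 to 1 with unstimulated replicates 1 and 2 only or replicates 1 and 2 of each group. With IL-4+anti-CD40 against LPS, the higher count went from 8 to 4 in the fit of 20 libraries and the lower count from 0 to 1 in replicates 1 and 2. With DSF in LPS, the higher count went from 7 to 4 under total counts and the lower count from 1 to 0 in the fit of 20 libraries. With DSF in IL-4+anti-CD40, the lower count of 4 became 2 with DESeq2, with its size factors, with the replicate block and in replicates 3 and 4, and 1 in the fit of 20 libraries, and ranged from 2 to 4 without single libraries. The higher count of 3 became 5 in replicates 1 and 2. For the interaction, the lower count went from 8 to 1 in the fit of 20 libraries, and the higher count from 0 to 1 without the count filter, in replicates 1 and 2 and in replicates 3 and 4, ranging from 0 to 1 without single libraries. The splits into replicate pairs of each group were chosen after seeing the data. In the second experiment no count of transporters past 2-fold moved by over 1.5 times.

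Single replicate numbers did not pair the libraries. The correlation of deviations between libraries of the same number ran from -0.056 to 0.169, and no comparison had every pair over 0.1. Every library correlated best with its own number in no comparison. With DSF in IL-4+anti-CD40, replicates 1 and 2 without DSF correlated best with DSF replicate 1, and replicates 3 and 4 with DSF replicate 4. The check of single numbers thus does not address the division into replicates 1 and 2 and replicates 3 and 4. The main tests were unpaired. With the replicate block Slc7a2 rose past the threshold with DSF in IL-4+anti-CD40 (1.32, edgeR adjusted p = 0.000411) and Slc1a4 with LPS (2.64, adjusted p = 0.041), while Slc7a5 (-0.16), Slc1a5 (-0.12) and, with LPS, Slc38a1 (-0.36) no longer passed, and the block changed no other call of the 10 transporters.

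Over all genes, total counts changed the split of calls: with LPS from 4283 higher and 4818 lower to 2903 and 6387, for IL-4+anti-CD40 against unstimulated B cells from 4389 and 4633 to 3454 and 5574, for IL-4+anti-CD40 against LPS from 2439 and 3145 to 4712 and 2428, for DSF in LPS from 4966 and 5096 to 3473 and 6680, and for DSF in IL-4+anti-CD40 from 4301 and 4514 to 3262 and 5832. For LPS with DSF they went from 5031 and 5464 to 3151 and 7453, for IL-4+anti-CD40 with DSF from 4901 and 5178 to 3117 and 6760, and for the interaction from 1053 and 1199 to 1423 and 826. The fit of 20 libraries changed the interaction split further, to 710 higher and 205 lower. Total counts moved the median log2 fold change of all genes most for LPS with DSF against unstimulated B cells (-0.02 to -0.43) and raised it for IL-4+anti-CD40 against LPS (0.01 to 0.14). Depth limits Slc1a2 and, in unstimulated B cells, Slc7a2, whose libraries held a handful of reads.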
